A study of Homo sapiens with 2 samples.

Results

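The genes described here are the components, feedback regulators and transcriptional targets of Wnt/beta-catenin signalling, taken by gene symbol from a list of 37 genes. Of these 37, 35 had a probe set assigned to 1 symbol, out of 18132 such genes on the arrays, and EPHB2 and TCF7 were not analysed here. Expression was measured on Affymetrix arrays in HCT116, an established human colorectal carcinoma line, with 1 array of cells carrying a scrambled hairpin (control genotype) and 1 array of cells carrying the hairpin shSUN2-1 (SUN2 knockdown). SUN2 spans the inner membrane of the nucleus and, within the LINC complex, couples the nucleus to the cytoskeleton. Both cultures were kept in DMEM with 10% serum at 37 °C and 5% CO2, and 100 ng of total RNA was labelled from each. The knockdown rests on 1 hairpin and 1 culture, so every value below is a difference between 2 arrays without replicates, standard error or test.

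Wnt ligands bind Frizzled and LRP receptors at the cell surface, and Dishevelled proteins then disable the AXIN and GSK3B complex that marks beta-catenin for degradation. Stabilised beta-catenin enters the nucleus and joins TCF/LEF factors on target genes, several of which (AXIN2, NKD1, RNF43, ZNRF3, NOTUM, the DKK genes) encode inhibitors that feed back on the pathway. In the intestine the pathway maintains crypt stem cells, and in most colorectal cancers, HCT116 included, it is active because beta-catenin escapes degradation.

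TCF/LEF factors recognise a short motif, and the 250 bases upstream of the annotated start were searched on both strands for CTTTG followed by AA, AT, TA or TT. Windows were found for 25 of the 37 genes (RefSeq, GRCh38.p14). At least 1 match was present in 4 of these 25 genes (16%), against 14.3% of the 27305 genes with a window. These were SP5 and DKK1, and 1 of the alternative starts of each of TCF7 and TCF7L2. The windows of 4 genes are shown because DKK1 (a secreted inhibitor) was the member with the largest increase, SOX4 (a transcription factor) and RNF43 (a ligase that removes Frizzled receptors) had the largest decreases, and SP5 (a transcription factor) held the most matches, with 3. Matches are in capitals, each sequence runs 5′ to 3′ on the gene's strand, and for RNF43 the more upstream of its 2 starts is given. They lie at chr10:52314031-52314280 (DKK1, plus strand), chr2:170715087-170715336 (SP5, plus strand), chr6:21593501-21593750 (SOX4, plus strand) and chr17:58417535-58417784 (RNF43, minus strand).
DKK1: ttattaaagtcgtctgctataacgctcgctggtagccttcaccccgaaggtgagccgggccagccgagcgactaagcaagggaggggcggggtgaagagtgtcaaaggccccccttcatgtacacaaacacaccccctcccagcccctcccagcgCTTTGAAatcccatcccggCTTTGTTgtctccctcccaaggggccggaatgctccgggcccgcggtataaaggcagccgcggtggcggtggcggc
SP5: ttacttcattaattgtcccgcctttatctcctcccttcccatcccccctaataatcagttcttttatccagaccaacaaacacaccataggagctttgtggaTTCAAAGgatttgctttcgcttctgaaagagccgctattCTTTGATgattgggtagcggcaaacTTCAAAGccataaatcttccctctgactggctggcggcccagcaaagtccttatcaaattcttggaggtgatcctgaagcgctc
SOX4: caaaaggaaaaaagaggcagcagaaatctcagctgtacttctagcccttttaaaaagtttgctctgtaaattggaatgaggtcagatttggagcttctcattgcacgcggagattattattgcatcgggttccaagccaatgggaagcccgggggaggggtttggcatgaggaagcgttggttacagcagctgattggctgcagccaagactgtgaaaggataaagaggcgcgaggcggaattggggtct
RNF43: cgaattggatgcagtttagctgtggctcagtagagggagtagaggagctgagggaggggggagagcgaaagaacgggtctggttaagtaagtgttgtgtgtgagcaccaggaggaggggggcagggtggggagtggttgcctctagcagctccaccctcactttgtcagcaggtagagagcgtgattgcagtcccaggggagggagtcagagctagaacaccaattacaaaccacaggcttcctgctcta
In DKK1 the matches begin 95 and 76 bases before the start, and in SP5 they begin 148, 109 and 84 bases before it. The SOX4 window and both RNF43 windows held none of these letters, which says nothing on sites elsewhere. A match is a description of the sequence, and binding was not measured.

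The values are deposited probe set intensities on a linear scale. Each difference is the knockdown array minus the scrambled array on the log2(intensity + 16) scale, where 1.5-fold is 0.58 and the smaller size used for counts here, 0.32, is a rise of 25%. The probe set that was brightest on average stands for its gene. SUN2 itself read 497.7 on the scrambled array and 407.3 on the knockdown array, 81.8% of control (-0.28). All 6 of its probe sets were lower, from -0.39 to -0.05, so the targeted gene differed by a small amount on these arrays. Of the 12218 genes past the filter given below, 80 had a larger decrease than SUN2. As RNA of whole cultures was measured, fewer cells with a transcript and less of it per cell cannot be told apart. Of 10 colon epithelial markers, 7, among them EPCAM, KRT8 and KRT19, passed the filter on low values and 3 (VIL1, LGALS4 and CDH17) did not. Of 17 measured markers of fibroblasts, immune cells and endothelium, 7 also passed, so passing does not tell the cell type. On the scrambled array EPCAM, KRT8 and KRT19 read 1342, 1041 and 2619, and the markers of other cell types at most 254.1. The colon marker CDX2 read 233.1. Over 5786 genes with several probe sets, the SD of a probe set about the mean of its gene was 0.09, which covers probe error only and is too small where probe sets share probes. In DVL3, 2 probe sets held the same values on both arrays. The filter kept genes with a mean intensity of at least 108.2, the median probe set, which left 12218 genes and 28 of the 35 members.

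Of the 28 Wnt genes that passed, 18 were lower after SUN2 knockdown (64.3%) and 10 were higher (35.7%). Among all genes past the filter the background was 50.2% lower and 49.8% higher. The median difference of the Wnt genes was -0.06, with quartiles of -0.12 and 0.06. For all genes the median was -0.0008, with quartiles of -0.08 and 0.11. Only DKK1 and MYC were higher by 0.32 or more, 2 of 28 against a background of 3.1% of genes, and only SOX4 was lower by that size, 1 of 28 against 0.442%. DKK1, MYC and SOX4 all read above 500 intensity units, as did 8 of the Wnt genes. Above 500 units, 6.95% of all genes were higher by that size and 1.12% lower. None of the 28 reached 1.5-fold, a size found for 0.336% of all genes in the higher direction and 0.0246% in the lower.

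**Figure D1:**
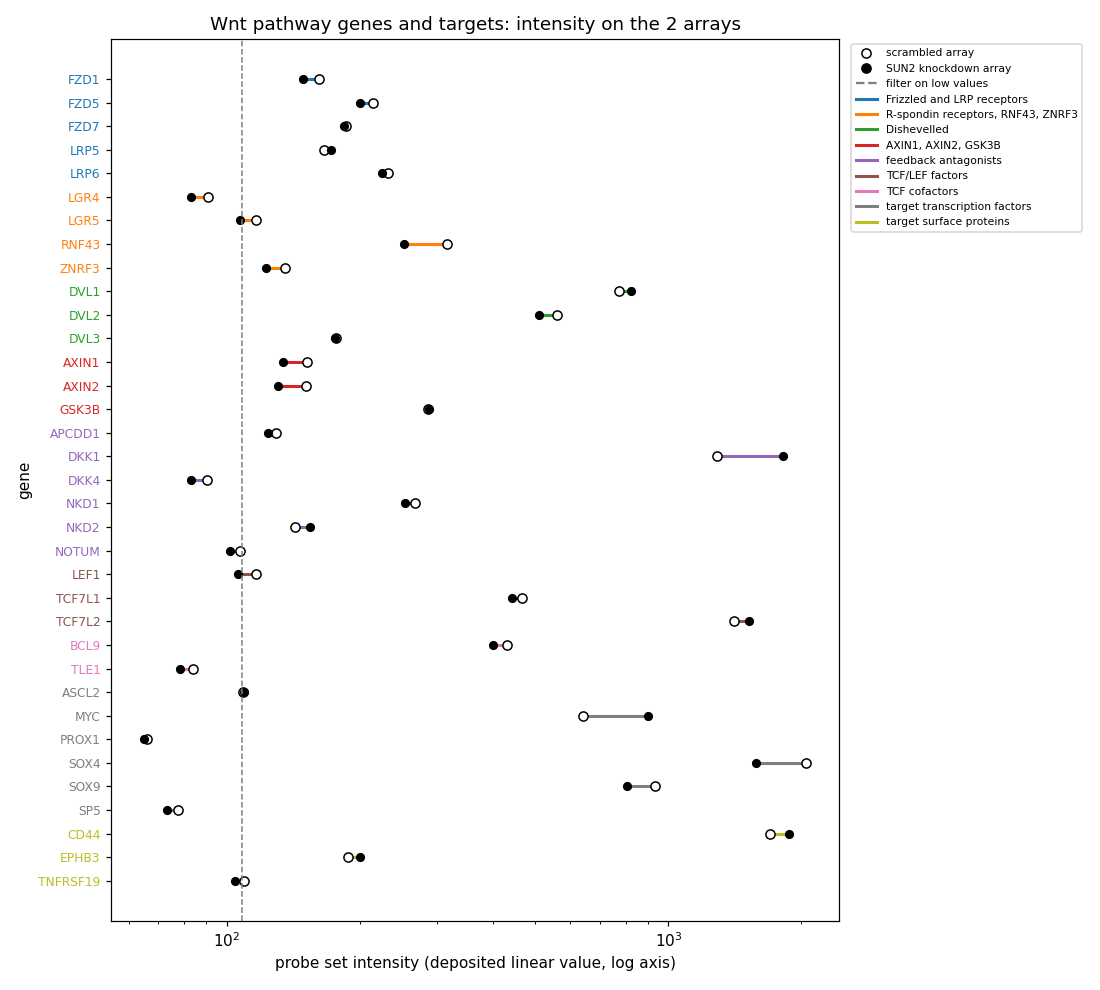
Intensity of the representative probe set of each of the 35 measured genes on the scrambled array (open circles) and the SUN2 knockdown array (filled circles), on a log axis and coloured by role; the dashed line is the filter at 108.2. DKK1 and MYC lie to the right of their control value by the widest gaps, SOX4 and RNF43 to the left, and most other pairs nearly touch.

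Over all genes, the share that was lower depended on intensity. Between 108.2 and 250 intensity units, 11 of 15 Wnt genes were lower (median -0.05), and so were 62.9% of all 6483 genes in that band (median -0.04). Between 250 and 500 units, 4 of 5 Wnt genes were lower (median -0.07), against 42.9% of 3505 genes (median 0.03). Above 500 units, 3 of 8 Wnt genes were lower (median 0.10), against 24.8% of 2230 genes (median 0.10). Markers of fibroblasts, immune cells and endothelium, which HCT116 cells should not express, were lower for 16 of 17 measured, from -0.13 to 0.03, at control intensities of 34.7 to 254.1. Their summed intensity was 2082 on the scrambled array and 1959 on the knockdown array. The array's background controls, designed against no human sequence, differed by -0.06 to -0.09 at 17 to 20 G or C bases, where they read 153.5 to 282.4 on the scrambled array. The controls with 21 to 25 such bases read 367.5 to 1425 and differed by -0.10 to -0.33, while all 18 hybridization spike-ins were higher, from 0.01 to 0.16 (median 0.09). Of the 10 colon epithelial markers, the 7 past the filter were all higher, from 0.04 to 0.34, and the 3 below it were lower, from -0.12 to -0.004. Among the Wnt genes between 108.2 and 250 units, AXIN1 (-0.16) and AXIN2 (-0.19) fell below every marker of other cell types. This holds for representative probe sets, and the other decreases lay within the range of those markers. Single marker probe sets reached -0.16 in VWF and, below the filter, -0.18 in COL1A1, near the axin values. The part of background in the decreases of the Wnt genes was not tested.

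**Figure D2:**
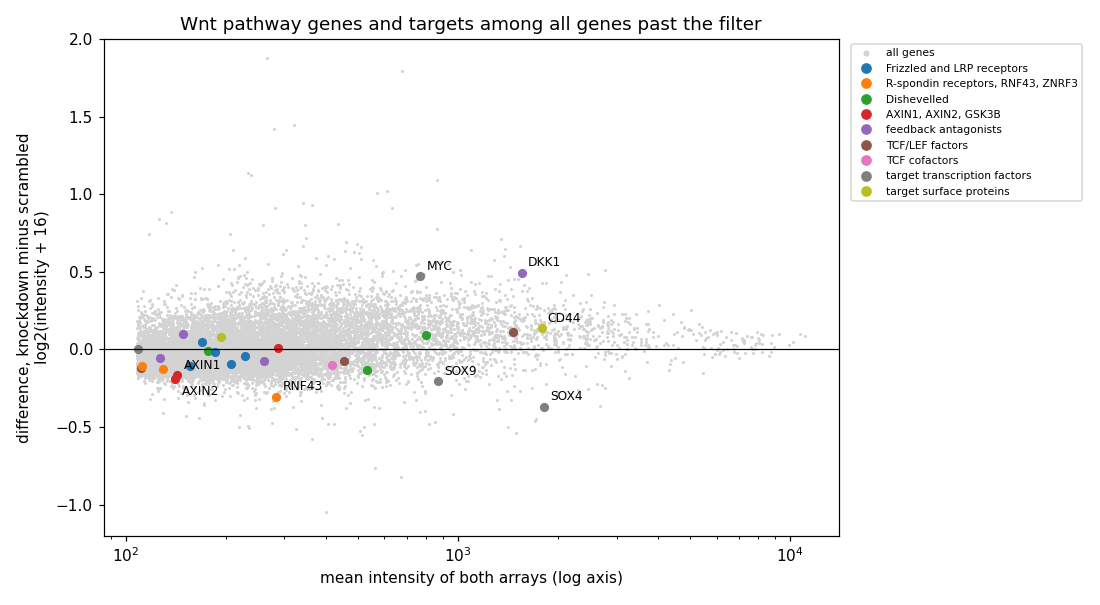
Difference between the arrays (log2) against mean intensity (log axis) for the 12218 genes past the filter in grey, with the 28 Wnt genes coloured by role. DKK1 (0.50) and MYC (0.48) stand near the upper edge of the cloud at their intensity, SOX4 (-0.37) and RNF43 (-0.30) near the lower edge, and most other Wnt genes lie inside it.

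Receptors for Wnt ligands differed little. FZD5, a Frizzled receptor of intestinal epithelium, read 214.7 on the scrambled array and 200.6 on the knockdown array (-0.09). All 5 FZD5 probe sets were lower, from -0.20 to -0.09, 3 of them past the filter. FZD1 read 162.1 and 149.1 (-0.11), and its second probe set differed by -0.15. FZD7 read 186.4 and 184.2 (-0.02), with 3 probe sets between -0.02 and 0.03. The co-receptors LRP5 and LRP6, which are phosphorylated when a Wnt ligand binds, read 166.0 and 172.4 (0.05) and 232.2 and 224.7 (-0.04). FZD5 and FZD1 were thus lower on every probe set, on the representative ones by amounts that the markers of other cell types also showed. FZD7 turned to 0.004 with median centring and with averaged probe sets, and to 0.03 without the _x_at and _s_at classes.

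The ligases and receptors of the R-spondin branch were lower on every probe set. RNF43, a transmembrane ubiquitin ligase that clears Frizzled from the surface and is itself a Wnt target, read 315.5 on the scrambled array and 252.6 on the knockdown array, 80.1% of control (-0.30). Its next probe sets read 300.9 and 254.5 (-0.23), 246.5 and 227.6 (-0.11), and 131.8 and 123.5 (-0.08), and 2 below the filter were also lower. The 6 probe sets agreed in direction but not in size, and their mean was -0.16. Only 61 of the 12218 genes had a larger decrease than RNF43 on the representative probe set, which is of the _x_at class that can bind other transcripts. ZNRF3, the paralog with the same role, read 135.5 and 122.8 (-0.13) on its 1 probe set. LGR5, the R-spondin receptor that marks crypt stem cells, read 116.6 and 107.5 (-0.10). LGR4, the more widely expressed receptor, read 90.6 and 83.3 (-0.10) and lay below the filter. On representative probe sets, RNF43 alone of these 4 genes exceeded the decreases of the markers of other cell types, which ended at -0.13. Those markers read at most 254.1 on the scrambled array, less than this RNF43 probe set. The RNF43 probe sets at -0.11 and -0.08 lay within the range of the markers.

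Dishevelled genes, whose products relay the receptor signal, went different ways in the reported values. DVL2 read 559.1 on the scrambled array and 508.7 on the knockdown array (-0.13), and all 4 of its probe sets were lower, from -0.13 to -0.04. DVL1 read 773.1 and 825.1 (0.09) on its 1 probe set, and this increase became -0.02 with quantile normalization and -0.003 with loess. DVL2 stood at -0.24 and -0.21 under these settings. All genes above 500 intensity units had a median of 0.10, close to the DVL1 value. DVL3 read 176.8 and 175.9 (-0.01). In the degradation complex, the scaffold AXIN1 read 152.2 and 134.1 (-0.16) on 1 probe set. AXIN2, the scaffold that Wnt signalling induces and a standard readout of the pathway, read 151.5 and 130.6, 86.2% of control (-0.19). Its other probe sets read 81.2 and 76.5 (-0.07) and 53.3 and 52.7 (-0.01), both below the filter, and the mean of the 3 was -0.09. The kinase GSK3B read 285.6 and 287.4 (0.01), and turned to -0.03 with quantile normalization. Both axins were lower and the kinase of the complex was nearly equal on the 2 arrays.

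**Figure D3:**
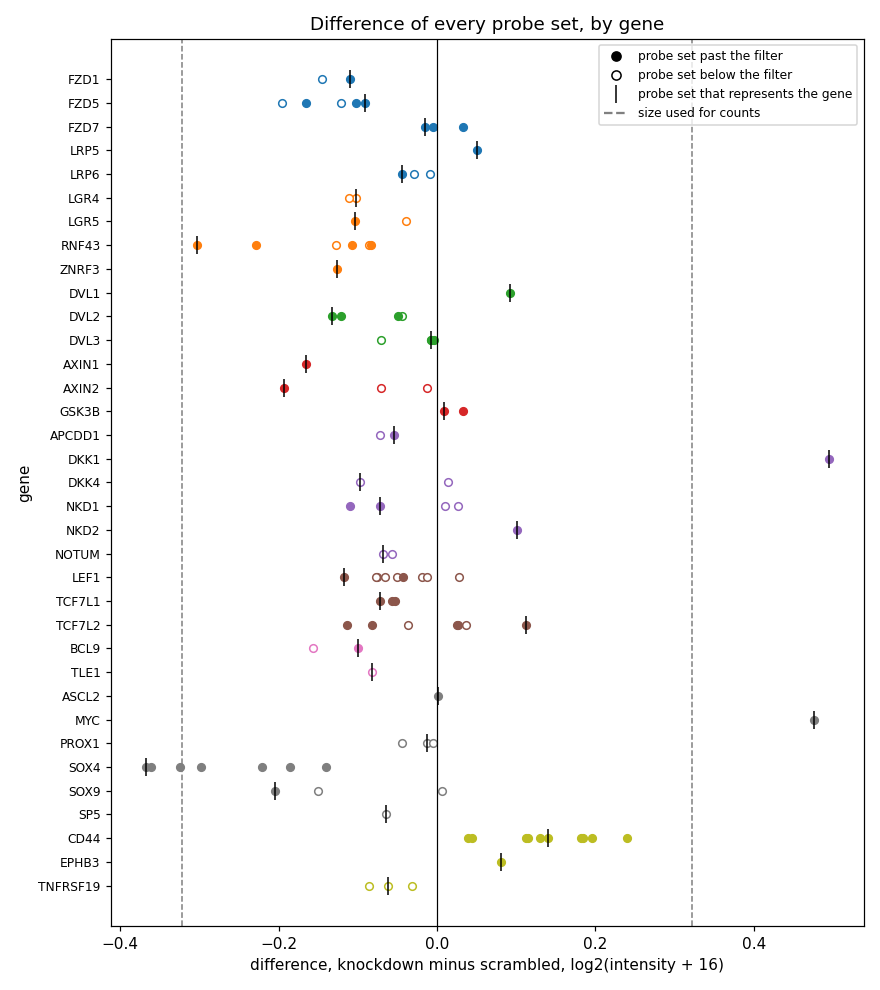
Difference between the arrays (log2, knockdown minus scrambled) for each of the 104 probe sets of the Wnt genes; filled points passed the filter, open points did not, the bar marks the probe set that represents the gene and the dashed lines are at 0.32 on either side. All 10 CD44 probe sets lie right of 0 and all 7 SOX4 and 6 RNF43 probe sets lie left of it, whereas TCF7L2 lies on both sides.

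Secreted and cytoplasmic antagonists did not move together. DKK1, which blocks LRP5 and LRP6, read 1288 on the scrambled array and 1822 on the knockdown array, 141% of control (0.50, or 1.41-fold). It had 1 probe set, and 69 of the 12218 genes had a larger increase. The related DKK4 read 90.1 and 83.2 (-0.10), below the filter. NKD1, which binds Dishevelled, read 266.7 and 253.0 (-0.07) and 157.1 and 144.5 (-0.11) on its probe sets past the filter, and its dim ones were slightly higher (0.03 and 0.01). NKD2, its paralog, read 142.7 and 154.2 (0.10). APCDD1, a membrane inhibitor of the pathway, read 129.2 and 123.8 (-0.05), and NOTUM, an enzyme that removes the lipid from Wnt ligands, read 107.4 and 101.8 (-0.07), below the filter. Of the 6 antagonists, those other than DKK1 lay between -0.10 and 0.10.

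TCF/LEF factors, which carry beta-catenin on DNA, stayed close to control. TCF7L2, the main family member of the colon, read 1405 on the scrambled array and 1520 on the knockdown array (0.11). The 5 that passed the filter spanned -0.11 to 0.11, with 3 higher, and the mean over all 7 was -0.0045. Loess gave 0.006 for the representative probe set, so no direction can be given for TCF7L2. TCF7L1, mostly a repressor, read 466.8 and 443.2 (-0.07), with all 3 probe sets between -0.07 and -0.05. LEF1 read 116.6 and 106.2 (-0.12), and 8 of its 9 probe sets were lower, 7 of the 9 below the filter. BCL9, which links beta-catenin to further activators, read 431.5 and 401.7 (-0.10), and the Groucho co-repressor TLE1 read 84.0 and 78.4 (-0.08), below the filter. The representative probe sets of TCF7L1 and BCL9 read above every marker of other cell types, but within the intensities of the array's non-human control probes. Such controls reading 367.5 and 594.8 on the scrambled array, below and above both genes, were lower by similar or larger amounts (-0.10 and -0.12). How much background contributed to the TCF7L1 and BCL9 decreases was not tested. The second BCL9 probe set, below the filter, differed by -0.16.

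Target transcription factors showed the widest spread of any role. MYC, the growth regulator, read 641.5 on the scrambled array and 898.2 on the knockdown array, 140% of control (0.48, or 1.39-fold). It had 1 probe set, and 81 genes had a larger increase. SOX4 read 2046 and 1582, 77.3% of control (-0.37, or 1.29-fold lower), and 37 genes had a larger decrease. Its other probe sets read 1849 and 1501 (-0.30), 1751 and 1395 (-0.32), 637.4 and 544.7 (-0.22), 552.0 and 426.3 (-0.36), 452.9 and 396.4 (-0.19), and 429.0 and 387.9 (-0.14). All 7 SOX4 probe sets were lower, with a mean of -0.27, smaller in size than 0.32. SOX9, a regulator of crypt progenitors, read 933.6 and 807.9, 86.5% of control (-0.20). Its other probe sets lay below the filter and differed by 0.01 and -0.15, so the SOX9 decrease rests on 1 probe set, of the _s_at class. ASCL2, a master regulator of crypt stem cells, read 109.1 and 109.2 (0.001), and SP5 and PROX1 lay below the filter at -0.06 and -0.01. SOX4 was lower and MYC higher on these arrays, and agreement between probe sets could be checked for SOX4 alone.

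Among surface proteins encoded by target genes, CD44, a hyaluronan receptor, was higher throughout. It read 1698 on the scrambled array and 1872 on the knockdown array (0.14), and all 10 probe sets were higher, from 0.04 to 0.24, with a mean of 0.14. All 2230 genes above 500 intensity units had a median of 0.10, and CD44 stood at 0.03 once the trend with intensity was removed by loess. EPHB3, an ephrin receptor that positions cells along the crypt, read 188.1 and 199.9 (0.08). TNFRSF19, a receptor of the tumour necrosis factor family, read 109.7 and 104.4 (-0.06), below the filter. The CD44 increase was seen on every probe set, and on the representative one it was close to the median of other bright genes. The CD44 probe sets below 500 units differed by 0.24 (307.0 and 365.3), 0.18 (195.3 and 223.6) and 0.13 (112.0 and 124.1). The remaining ones differed by 0.04 (157.6 and 162.4) and 0.04 (131.7 and 136.3). Medians of all genes, taken on representative probe sets, were 0.03 between 250 and 500 units and -0.04 below 250.

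Where several probe sets could be compared, they mostly agreed. Of 12 Wnt genes with at least 2 probe sets past the filter, 10 had all of them on the same side, 8 lower and 2 higher. The same held for 63.9% of all genes with at least 2. All 7 members below the filter were lower, from -0.10 to -0.01, at control intensities of 65.9 to 109.7. Of all 5914 genes below the filter, 74.4% were lower.

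The rest of the pathway was described by a list of 101 further genes, of which 96 were measured and 66 passed the filter. Of these, 29 were higher and 37 lower (56.1%, against 50.2% of all genes), with a median of -0.02. After quantile normalization 20 were higher and 46 lower, and 58.7% of all genes were then lower, with a median of -0.03. By 0.32 or more, 3 genes were higher and 0 were lower, against 3.1% and 0.442% of all genes. TPBG, a membrane glycoprotein that inhibits Wnt signalling at the receptor, read 355.6 and 561.2 (0.64) on its 1 probe set and was the only gene of either list past 1.5-fold. The ligand gene WNT16 read 266.8 and 394.4 (0.54), but its second probe set differed by -0.03. JAG1, a Notch ligand that Wnt signalling can induce, read 546.6 and 715.4 (0.38), while the 3 of its probe sets that passed spanned -0.12 to 0.38. TBL1XR1, a cofactor that binds beta-catenin, read 1049 and 852.3 (-0.30), while the other one that passed stood at 0.08. The acetyltransferase gene CREBBP read 343.7 and 413.1 (0.25), with probe sets past the filter from -0.07 to 0.37, and the kinase gene CSNK1G2 read 715.8 and 615.2 (-0.21), with all 4 probe sets lower. Of 13 ligand and secretion genes that passed, 10 were lower (-0.16 to -0.03). The share was 50.2% over all genes and 62.9% over those between 108.2 and 250 units, where most of these 13 read. The 6 groups of this list had medians between -0.04 and 0.02.

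**Figure D4:**
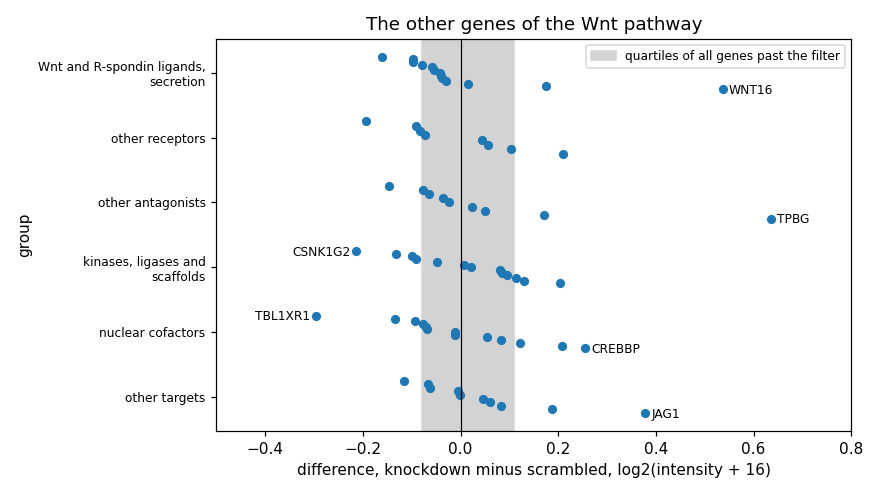
Difference between the arrays (log2, knockdown minus scrambled) for the 66 further pathway genes past the filter, 1 point per gene, by group; the grey band spans the quartiles of all genes (-0.08 to 0.11). TPBG (0.64), WNT16 (0.54) and JAG1 (0.38) stand to the right of the other genes and TBL1XR1 (-0.30) and CSNK1G2 (-0.21) to the left.

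Most members kept their direction when the processing was changed. Of the 28 genes past the filter, 22 kept their sign under each of 10 alternatives that gave them a value, 15 lower and 7 higher. The filter and pseudocount alternatives could not turn a sign, so only the others bear on it. For DKK1 and MYC, with 1 probe set each, averaging and leaving out classes also returned the reported value. DKK1 ranged from 0.38 to 0.51, MYC from 0.36 to 0.50, SOX4 from -0.47 to -0.27 and RNF43 from -0.34 to -0.16. AXIN2 ranged from -0.24 to -0.09, and SOX9 from -0.31 to 0.01, the last without the _x_at and _s_at classes.

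**Figure D5:**
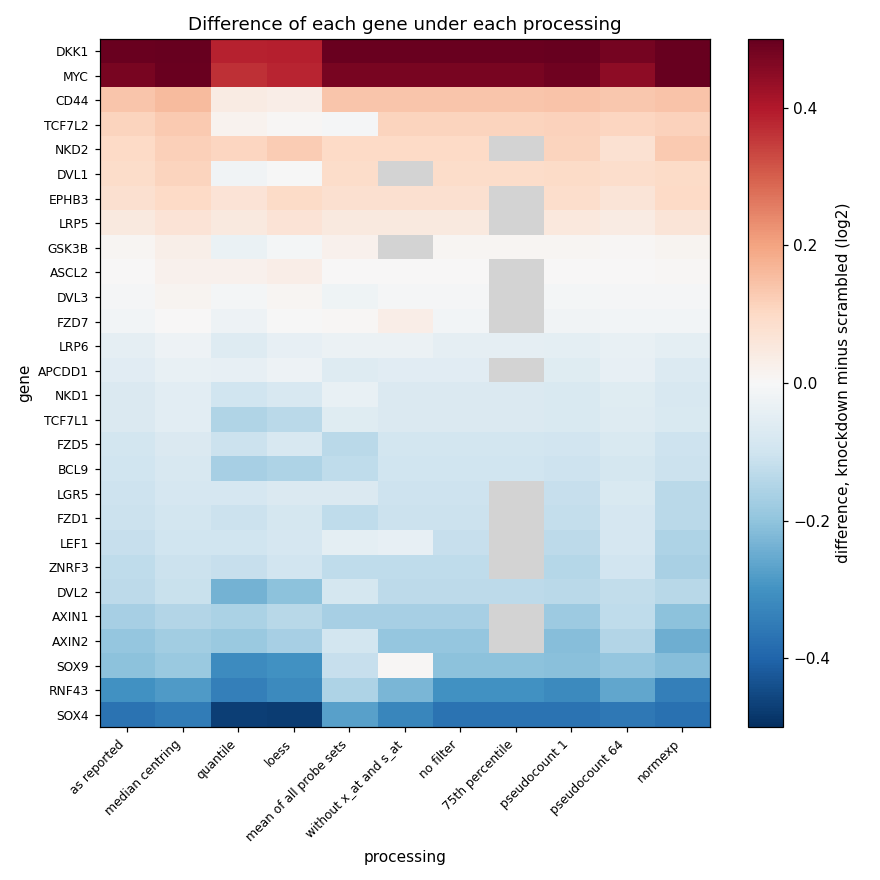
Difference between the arrays (log2, colour scale) of each of the 28 Wnt genes past the filter (rows, ordered by the reported value) under each processing (columns); grey cells have no value. DKK1 and MYC are red and SOX4 and RNF43 blue in every column with a value, while DVL1, GSK3B, DVL3, FZD7, TCF7L2 and SOX9 change sign in at least 1 column.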

How the data were processed

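The authors deposited probe set intensities on a linear scale; MAS5 and RMA are listed in the submitters' processing notes without saying what each was used for. No source used here gives the normalization, scaling or centring of the arrays. Median intensity was 108.8 on the scrambled array and 107.1 on the knockdown array. Of 49395 probe sets, 102 controls were kept apart and 44988 of the rest carried 1 gene symbol in the platform annotation; symbols were updated through the Entrez ID for 44961. Values were taken as log2(intensity + 16), and the brightest probe set (mean of both arrays) stood for each gene. The filter was the median probe set. With 1 array per group there is no test, and genes are counted past log2 differences of 0.32 and 0.58, sizes set by hand; the number of arrays limits the precision. All members are named, and of the further pathway genes the 6 with the largest absolute difference and any past 1.5-fold. Members, lists and markers were chosen with earlier results of these data known. The alternatives were median centring, quantile normalization, loess (span 0.3), the mean of all probe sets, leaving out the _x_at and _s_at classes, no filter, a filter at the 75th percentile, pseudocounts of 1 and 64, and normexp (limma 3.58.1, R 4.3.3). Intensity bands were added after the values were seen. The gene steps (Python 3.11.15, pandas 2.3.3) were tested on simulated data.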

Additional observations from a re-analysis of the deposited data

How the results depend on the processing

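No paired analysis was possible because both groups consist of a single array, which also means that neither could be dropped. The count of Wnt genes higher by 0.32 or more (log2) stayed at 2 under all 10 alternatives. Over all 12218 genes that count was 379 as reported, 181 when probe sets were averaged and 559 with normexp. The count lower by 0.32 or more was 1 as reported, 2 with quantile normalization, 2 with normexp and 0 when all probe sets were averaged, where SOX4 stood at -0.27. Of all 12218 genes, 54 were lower by that size as reported, 103 with quantile normalization, 86 with normexp and 26 with averaging. The count of Wnt genes thus moved in the same direction as that of all genes. With the filter at the 75th percentile fewer genes were measured, and 6 were higher and 9 lower, with 40.2% of all 7256 genes lower. The median of the Wnt genes stayed below 0 under every alternative, from -0.08 with quantile normalization to -0.04 when probe sets were averaged. Over all genes it was -0.03 with quantile normalization and -0.007 when probe sets were averaged. The median of the further pathway genes turned from -0.02 to 0.0018 with median centring and to 0.055 with the 75th percentile filter. The median of all genes moved in the same direction, from -0.0008 to 0.0184 and to 0.0402. The cause was not tested beyond the shift and the smaller set that these settings make. Of the values of single Wnt genes under the alternatives, 246 moved by less than the probe set SD and 19 by more, none of the genes past 0.32 changing sign. The 246 include values that could not move, namely those under both filter alternatives. The same holds for genes with 1 probe set when probe sets were averaged. Signal over background limits dim genes most, but no single bound can be given: the background controls read up to 1425, at 25 G or C bases, and the base content of the probes was not used here.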
